A study of Homo sapiens with 9 samples.

Results

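The genes of the ubiquitin-specific proteases (USPs) were examined for contacts with SF3B1 in the leukaemia line K562, an established human cell line. Members were the protein-coding genes with a symbol made of USP, a number and at most 1 letter. USP39, which encodes a splicing factor, and the multicopy USP17L genes were left out. The rule gave 50 genes of 20037 protein-coding genes on the nuclear chromosomes. A binding site belonged to a member when its centre lay in the RefSeq span of the gene, on the strand of the gene. The members held 885 of the 96852 sites of the list, or 0.914%, and made up 0.250% of the protein-coding genes.

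USPs are cysteine proteases that cut ubiquitin from proteins and so counteract ubiquitin ligases. They form the largest family of human deubiquitinases, and members act on histones, on p53 and its ligase, on DNA repair proteins, at the proteasome and at endosomes. Most are encoded by long genes with many introns, while USP27X and USP51 are known as genes with few or no introns. SF3B1 is a subunit of the U2 small nuclear ribonucleoprotein, which recognises the branch point upstream of a 3′ splice site before an intron is removed.

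The assay was iCLIP. Cells are irradiated with ultraviolet light, which fixes proteins to the RNA they touch; the protein is then pulled down with an antibody, and sequencing marks the nucleotide at the contact. The series has 9 libraries, and the list used here is attached by the labels to the 3 libraries of SF3B1 from cells of genotype SF3B1 wt/wt, made with a monoclonal SF3B1 antibody from a K562 line supplied by Horizon Discovery. The other libraries, 2 of SF3B1 from SF3B1 K700E/wt cells of the same supplier and 4 of U2AF2 from SF3B1 wt/wt cells supplied by ATCC, were not analysed here. All cells were UV crosslinked, and no other treatment is named. The header of the list says that sites were reproducible by all replicates of either condition, so no site is assigned to a genotype.

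The list merges the replicates and carries no read number or value per library. Depth is therefore unknown, no spread between replicates can be given, and no test between groups or genes was made. Shares of sites are given with 95% Wilson intervals, which cover counting error only and treat neighbouring sites as independent. The number of sites in a gene depends on how much of its RNA was present, and RNA abundance was not used here. For orientation on the cell line, 6 of 9 erythroid or K562-related genes had sites (38.0% of all protein-coding genes had any). The counts were 6 in GATA1, 10 in GFI1B, 17 in TAL1, 24 in BCR, 25 in ABL1 and 121 in TFRC. KLF1, HBG1 and HBG2 had 0. None of 7 lymphoid genes, among them CD3E and PAX5, had a site. Lists this short do not identify a lineage.

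Sites were found in 38 of the 50 USP genes, or 76.0%. Among all protein-coding genes, 38.0% had at least 1 site. The members thus carried sites more often than the background, and they were also longer, with a median span of 72.9 kb against 24.1 kb. The direction was the same in each of 4 length classes. Of the 15 members from 40 to 80 kb, 11 had a site against 52.2% of all genes of that length, and of the 20 members from 80 to 160 kb, 17 did against 51.7%. Of the 13 members under 40 kb, 8 had a site against 32.1%. Both members over 160 kb, USP34 and USP32, had sites, against 36.0% of genes of that length. Whether RNA abundance accounts for the remaining difference was not tested.

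The count of sites varied widely within the family. At least 5 sites were found in 29 members (background 23.1%), at least 10 in 25 members (background 14.8%) and at least 30 in 13 members (background 4.01%). A further 11 members had 2 to 9 sites, USP5 and USP35 had 1 site each, and 12 had none. The median was 16.5 sites over the 38 members that had any, and the middle 50% of them ran from 6.25 to 34.5. Over all protein-coding genes that had any, the median was 7 and the middle 50% ran from 3 to 15. The 3 members with the most sites held 25.9% of the family's sites and the 10 with the most held 58.9%.

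**Figure D1:**
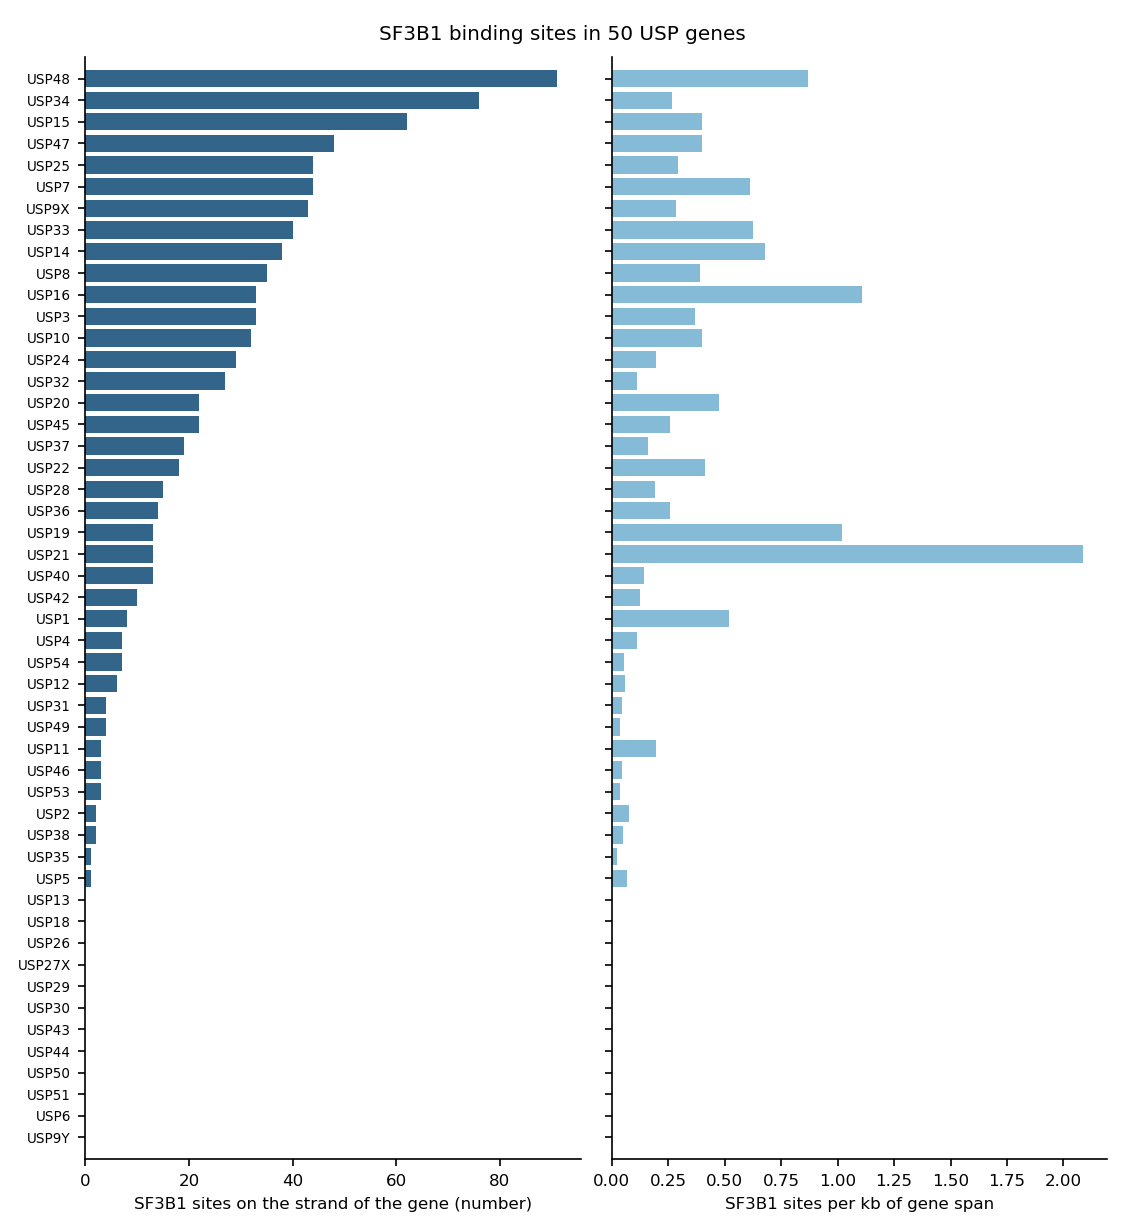
SF3B1 sites in each of the 50 USP genes as a number (left) and per kb of the RefSeq gene span (right), with genes ordered by number. USP48 has the most sites, 91, whereas USP21 has the most per kb, 2.09, and the 12 genes at the bottom have none.

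USP48, a nuclear protease that acts on ubiquitinated histone H2A, had the most sites. Its 91 sites lay on the minus strand of chr1:21678298-21783149, and it ranked 50 among all protein-coding genes. USP34, a very large enzyme known for stabilising axin in Wnt signalling, followed with 76 sites on the minus strand of chr2:61187463-61471087. USP15, which acts in TGF-β signalling, had 62 sites on the plus strand of chr12:62260404-62416389. These 3 genes differed in density. USP48 had 0.868 sites per kb, USP15 had 0.397 and USP34, the longest member at 284 kb, had 0.268.

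The next members in the order were close to each other. USP47, which acts on DNA polymerase β in base excision repair, had 48 sites. USP25 and USP7, the latter known for deubiquitinating p53 and MDM2, both had 44, and USP9X, which stabilises MCL1, had 43. USP33 had 40 sites, USP14 had 38 and USP8 had 35. With no value per library, no order can be given among neighbours that differ by so few sites. Per kb, USP14 (0.678), USP33 (0.626) and USP7 (0.613) stood above USP25 (0.293) and USP9X (0.285).

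USP21, USP16 and USP19 had the highest density and were short genes, but other short members were sparse. USP5 had 0.069 sites per kb in 14.5 kb and USP11 0.196 in 15.3 kb. USP21, a protease with a span of 6.22 kb that acts on histone H2A, had 13 sites, or 2.09 per kb. USP16, another histone H2A protease, had 33 sites in 29.8 kb, or 1.11 per kb. USP19, which has a form anchored in the endoplasmic reticulum, had 13 sites in 12.8 kb, or 1.02 per kb. Together with the longer USP48 (105 kb) and USP14 (56.1 kb), USP21, USP16 and USP19 were the 5 densest members with at least 5 sites. Over all members with a site the median was 0.258 per kb, with quartiles of 0.0842 and 0.408 per kb. For all protein-coding genes the corresponding median was 0.199 per kb and the quartiles 0.0706 and 0.510 per kb, so the middle 50% of the family lay within that of the background. The lowest density among members with a site was 0.0207 per kb in USP35.

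Grouped by role, the enzymes linked to DNA damage and p53 all had sites (76.0% of the family and 38.0% of all protein-coding genes had any). Some members would fit another group as well. USP48, placed here, also acts on histone H2A, and USP1, which acts on FANCD2, was placed elsewhere. The sums and medians depend on this assignment, which was made with earlier results of these data known. USP48, USP47, USP7, USP10 (32 sites; it binds the stress granule protein G3BP1) and USP28 (15 sites; it acts on MYC) held 230 sites together, with a median of 44. The giant enzymes USP34, USP9X and USP24 held 148 sites, with USP24 at 29. All 6 members of a group that share a DUSP domain had sites (the list was not complete, since USP48 carries such domains too), from 62 in USP15 and 40 in USP33 through 27 in USP32 and 22 in USP20 to 7 in USP4 and 3 in USP11.

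The histone and chromatin group was mixed. Of its 9 members, 6 had sites (background 38.0%). USP3 and USP16 had 33 each, USP22 (the deubiquitinase of the SAGA complex) 18, USP36 (a nucleolar enzyme) 14, USP21 13 and USP49 4. USP44, USP27X and USP51 had 0. In the group of ubiquitin recycling and the proteasome, USP14, which sits on the proteasome, had 38 sites, whereas USP5, which disassembles free ubiquitin chains, had 1 and USP13 had 0. Of the enzymes at membranes, USP8 (endosomes) had 35, USP19 had 13 and USP30 (mitochondrial outer membrane) had 0. The enzymes activated by WD40 proteins were all low per kb except USP1. USP1, which deubiquitinates FANCD2 and PCNA, had 8 sites (0.519 per kb), USP12 had 6 (0.0568 per kb) and USP46 had 3 (0.0439 per kb).

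The 12 members with no site were USP6, USP13, USP18, USP26, USP27X, USP29, USP30, USP43, USP44, USP50, USP51 and USP9Y. USP18, which removes the ubiquitin-like protein ISG15, is known as an interferon-induced gene, and USP26 and USP29 are known from the germline. Their median span was 56.3 kb against 80.1 kb for members with a site, but long genes were among them, with USP9Y at 160 kb and USP13 at 136 kb. A count of 0 in the whole list cannot be told apart from RNA too rare to give a reproducible site. For USP9Y it also cannot be told apart from a Y chromosome absent from the cells. Among the enzymes listed as inactive or restricted to the germline, 2 of 6 had sites, 7 in USP54 and 3 in USP53. Over all protein-coding genes the share with a site was 38.0%, so so small a group cannot be set apart from it.

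Paralogues encode similar proteins yet differed in their sites. USP15 had 62 sites, USP4 7 and USP11 3, and their densities were 0.397, 0.111 and 0.196 per kb. USP9X had 43 sites on the X chromosome (0.285 per kb) and USP24 had 29 (0.195 per kb). USP9Y, on the Y chromosome, had 0, but whether these cells carry a Y chromosome was not examined. USP22 had 18 and its paralogues USP27X and USP51 had 0. USP32 had 27 and USP6 had 0, and USP37 had 19 while USP26 and USP29 had 0. Other pairs were closer per kb than by count. USP20 and USP33 had 22 and 40 sites, or 0.474 and 0.626 per kb. USP25 and USP28 had 44 and 15 sites, or 0.293 and 0.193 per kb. USP12 and USP46 had 6 and 3 sites, or 0.0568 and 0.0439 per kb. USP3 and USP16 had the same count of 33, but at 0.367 and 1.11 per kb because USP3 is the longer gene.

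Other deubiquitinases and the partners of USPs were counted the same way. Of 38 deubiquitinase genes outside the family, 26 had a site, with a median of 8 sites among them. MYSM1, a histone H2A deubiquitinase of the JAMM class, had the most, 52, followed by UCHL5, a proteasome-bound enzyme, with 39 and OTUD4 with 38. CYLD, which removes linear and K63-linked chains, had 1 site, and UCHL1, known from neurons, had 0. All 14 listed partners or substrates had sites (background 38.0%). The ligase gene HERC2 had 81, FANCD2 and FANCI, the substrates of USP1, had 60 and 55, and WDR48, the activator of USP1, USP12 and USP46, had 31, while WDR20 had 1. For comparison, 31 of 39 proteasome subunit genes (PSMD14 is on both lists) and 20 of 39 kinesin genes had a site, with medians of 11 and 24 among those with a site.

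**Figure D2:**
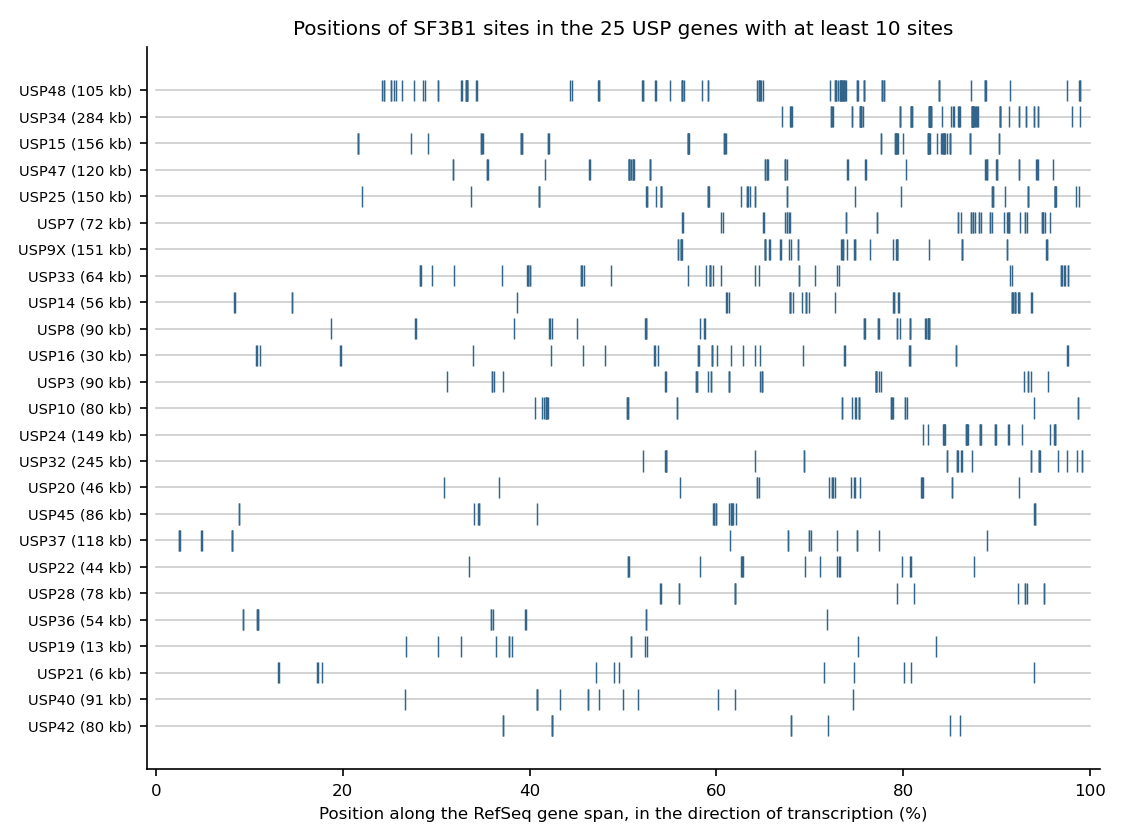
Position of every site (vertical ticks) along the RefSeq span of the 25 USP genes with at least 10 sites, as a percentage of the span in the direction of transcription. Gene length in kb stands beside each name; in most genes the left end is empty, and in USP34, USP7, USP9X, USP24, USP32 and USP28 the first site lies past the middle.

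The sites were placed towards the 3′ side of the genes. The first 10% of the span held 14 of the 885 sites, 1.58% (interval 0.945% to 2.64%), and the last 10% held 127, 14.4% (12.2% to 16.8%). In all protein-coding genes with a site these shares were 4.63% (4.50% to 4.77%) and 13.5% (13.3% to 13.7%). The family's share was lower at the 5′ end and similar at the 3′ end. Of the 14 sites, 8 lay in USP37 and the rest in USP14, USP36 and USP45. They are thus not independent, and the intervals cannot decide whether the shares differ. In the first 10% the listed partners of USPs had 1.07% of their sites and the other deubiquitinases 8.76%. Proteasome subunit genes had 4.32% and kinesin genes 6.17%. Of the 29 members with at least 5 sites, 25 had no site in the first 10% (background 76.0%), 24 had their median site past the middle of the gene (background 68.0%), and 18 had more sites in the last 10% than in the first (background 49.9%).

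The 5′ end without sites was long in kb. The first site lay at a median of 25.4 kb from the annotated start in the 29 members with at least 5 sites, against 8.23 kb in all genes with as many. As a share of the span the values were closer, 28.3% against 24.6%, and the first site lay past 33.3% of the span in 11 of 29 members (background 37.1%). The difference in kb thus went with the length of the genes. In USP34 the first site lay 190 kb from the start, at 67.0% of the span. In USP24 it lay at 122 kb (82.2%), in USP7 at 40.4 kb (56.3%), in USP9X at 84.5 kb (55.9%), in USP32 at 128 kb (52.1%) and in USP28 at 42.0 kb (54.0%). RefSeq spans run from the outermost start, and K562 cells can use a start further downstream. Which starts these cells use was not tested.

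**Figure D3:**
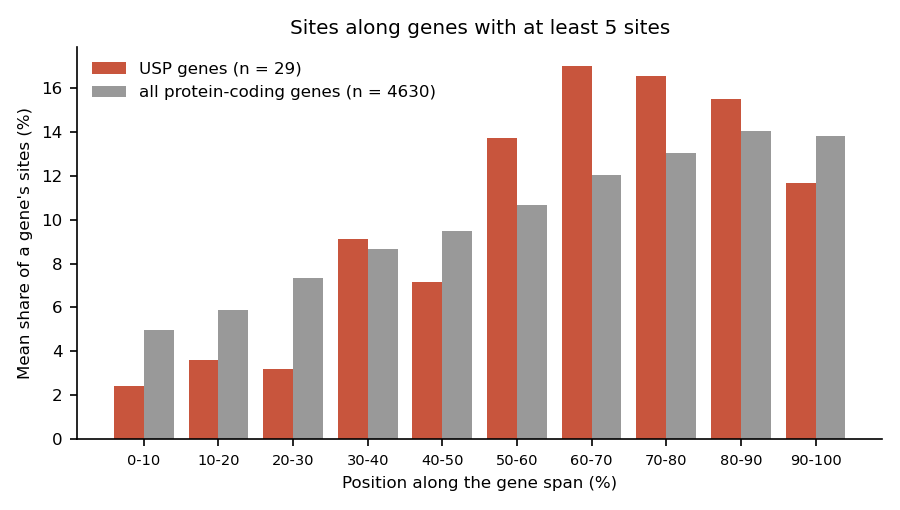
Mean share of a gene's sites in each 10% of the gene span, every gene weighted equally, for genes with at least 5 sites (29 USP genes, 4630 in all). The USP bars lie below the background up to 30% of the span, reach their highest value of 17.0% at 60 to 70%, and fall to 11.7% in the last 10%, where the background has 13.8%.

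Members differed in how far they followed this placement. USP37, which acts on cyclin A, had 8 of its 19 sites in the first 10% of the gene and 0 in the last 10%, and its early sites were followed by a stretch of 63.0 kb without a site. USP45 and USP36 had 2 sites each in the first 10%, as did USP14, which also had 14 of its 38 sites in the last 10%. At the other extreme, USP32 had 11 of 27 sites in the last 10% and USP7 had 15 of 44. Of the 25 members with at least 10 sites, 7 had none in the last 10%, among them USP8, USP22 and USP40. The same count was not made over all genes, so it is not known whether this is usual.

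Several members held many of their sites in a short part of the gene. USP24 had 23 of its 29 sites within a stretch of 10% of its span, USP7 had 29 of 44 and USP34 had 43 of 76. In 9 of the 25 members with at least 10 sites, more than 50% of the sites fell in such a stretch. This count too was not made over all genes. The median over the members with at least 5 sites was 46.9%, against 50% for all such genes, so the concentration was like that of the background. USP48 was more even, with 28 of 91 sites in its densest stretch, and its sites spread over 78.3 kb. USP33, with 11 of 40, was spread in the same way.

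Within the genes the sites came in small groups. Linking sites at most 60 nt apart gave 527 clusters in the USP genes, or 1.68 sites per cluster, against 1.57 in all protein-coding genes. In 302 clusters, 57.3% (53.04% to 61.5%), the site stood alone, against 63.2% (62.8% to 63.6%) in all genes. The other 225 clusters held 583 sites in 32 members. Pairs and triplets were the most frequent of these, with 132 clusters of 2 sites and 62 of 3 sites. Among members with at least 10 sites, USP14, USP36 and USP45 had the highest mean, 2 sites per cluster, and USP40 the lowest, 1.30.

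The largest clusters are described by position. A cluster of 7 sites in USP48, at chr1:21748180-21748320 on the minus strand, was the largest and the least regular, with 4 elements over 141 nt. An element is a set of sites at most 12 nt apart. The 6 clusters of 5 sites lay in USP15 (2 clusters), USP25, USP3, USP47 and USP9X and were 49 to 54 nt wide. In USP15, the cluster at chr12:62389373-62389426 had sites at 0, 7 and 14 nt and again at 41 and 49 nt from its first site. In USP25, at chr21:15874346-15874398, sites lay at 0 and 5 nt and at 37, 42 and 48 nt. In USP9X, at chrX:41170424-41170472, they lay at 0, 5 and 13 nt and at 37 and 44 nt. Each of these 3 clusters had an upstream and a downstream element with an empty stretch between them. The other cluster in USP15 was alike, with sites at 0, 7, 12, 41 and 47 nt. Those in USP3 and USP47 were less clear. In USP3 sites lay at 0, 5, 24, 36 and 49 nt, in 3 elements, and in USP47 at 0, 20, 31, 40 and 46 nt.

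**Figure D4:**
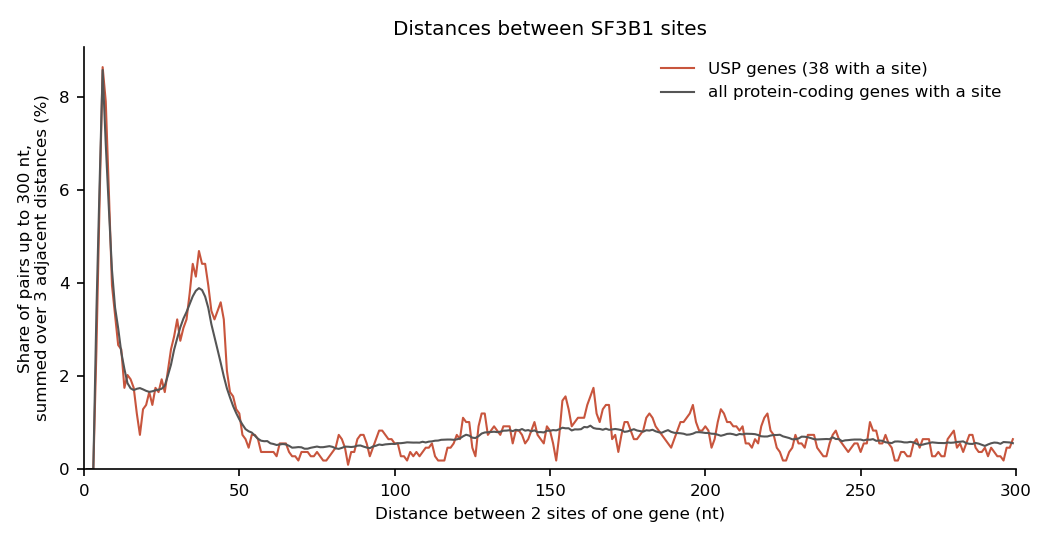
Share of pairs of sites at each distance up to 300 nt, summed over 3 adjacent distances, for pairs within USP genes and within all protein-coding genes. Both curves have a high value under 12 nt and a second maximum at 37 nt; the USP curve is noisier because it rests on fewer pairs.

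Over all members, 254 pairs of sites were 25 to 45 nt apart and 56 pairs were 46 to 66 nt apart, a ratio of 4.54. In all protein-coding genes the counts were 21522 and 5991, a ratio of 3.59. As a share of both spans, the nearer one held 81.9% in USP genes (77.3% to 85.8%) and 78.2% in all genes (77.7% to 78.7%), so the intervals overlap. More pairs in the nearer span were found in 29 members and fewer in 1, USP20, with 3 against 5 (background for more, 54.8% of genes with a site). Both spans were set on an earlier analysis of the same list. Beyond the closest sites, the second maximum of the distances, after summing over 3 adjacent values, was at 37 nt in the family and in all genes.

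USP48 had more pairs in the farther span than any other member. It had 23 pairs in the nearer and 14 in the farther span, and without it the ratio rose to 5.50. USP7, USP33 and USP16 had 11, 14 and 7 pairs in the nearer span and 0 in the farther, USP47 had 14 and 1, and USP15 had 28 and 3. Other members lay between these and USP48, among them USP24 with 9 and 4, USP14 with 13 and 4 and USP8 with 11 and 3.

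Clusters with exactly 2 elements whose means lay 25 to 45 nt apart are called paired footprints here. The USP genes had 127 of them, in 30 members (background 55.6% of genes with a site). USP34 had the most, 14, followed by USP15 with 12, USP48 with 9 and USP47, USP7 and USP9X with 8 each. In the 13 members with at least 5 paired footprints, the median distance between the elements ran from 31.0 nt in USP10 to 40 nt in USP48. Sites in the upstream elements numbered 176 and those in the downstream elements 160, or 1.10 to 1 against 1.04 to 1 in all genes.

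A longer spacing was also present. Pairs 140 to 180 nt apart numbered 140 in the USP genes and pairs 60 to 100 nt apart 68, a ratio of 2.06 against 1.72 in all protein-coding genes. Its largest contributors were USP34 with 21 against 9, USP48 with 19 against 11, USP15 with 17 against 1 and USP7 with 14 against 1. Of the 38 members with a site, 14 had more pairs at the longer distance (background 25.6%), 6 had fewer and 18 had equal numbers, 15 of these with none at either. USP25 (2 against 2), USP3 (2 against 2) and USP24 (6 against 6) were among the equal ones, and USP8 (4 against 7), USP37 (1 against 3) and USP20 (3 against 4) among those with fewer.

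Unpaired sites, meaning those with no partner 25 to 45 nt away, were combined with every paired site 100 to 250 nt from them. There were 172 combinations with the unpaired site downstream and 64 with it upstream, a ratio of 2.69, against 1.58 in all protein-coding genes. The ratio was 3.53 for the listed partners of USPs, 1.03 for other deubiquitinases, 0.895 for proteasome subunit genes and 1.21 for kinesin genes. More combinations had the unpaired site downstream in 15 members (background 19.3% of genes with a site) and upstream in 5 (background 10.1%). The downstream side led by 24 to 9 in USP15, 21 to 6 in USP48, 17 to 3 in USP33, 16 to 4 in USP14 and 15 to 0 in USP25. USP34 was balanced, with 11 against 12, and in USP9X (0 against 6) and USP19 (0 against 6) the upstream side led. An unpaired site counts once for every paired site in reach. The combinations thus share sites and are not independent counts.

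**Figure D5:**
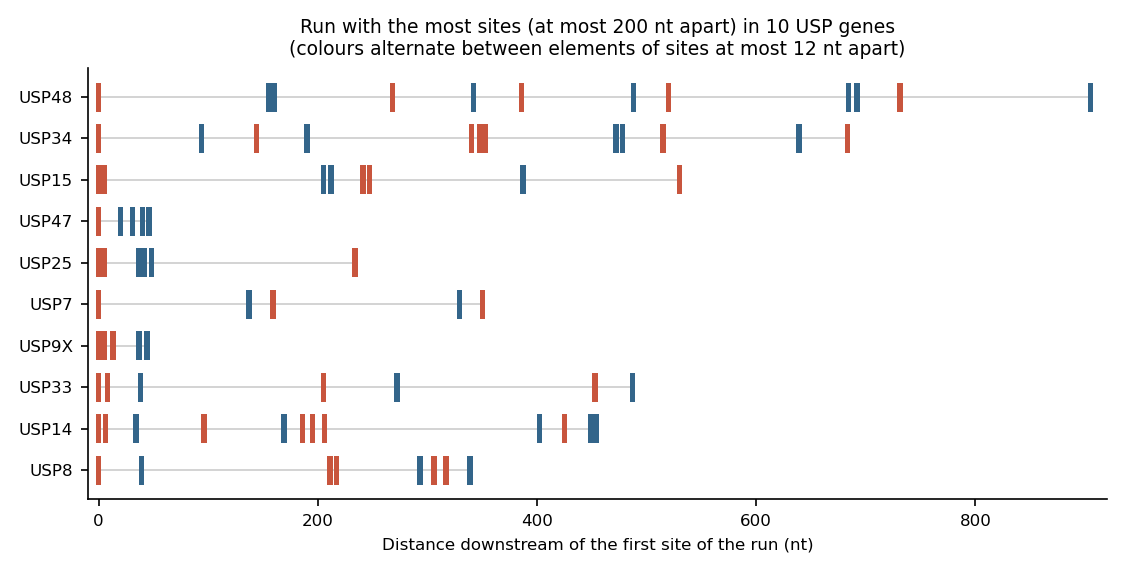
The run with the most sites, linked at 200 nt or less, in each of the 10 USP genes with the most sites. Each bar is a site of 5 nt drawn to scale, as distance in nt downstream of the first site of the run, and the colour changes from one element to the next; USP48, USP34 and USP14 have runs of 12 sites.

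Individual runs are given as examples. In those of USP15 and USP33, unpaired sites lay upstream as well as downstream of paired sites. In USP15, a run at chr12:62383822-62384356 began with unpaired sites at 0 and 5 nt. It went on with sites at 205 and 212 nt and at 241 and 247 nt, which form a paired footprint, and ended with single sites at 387 and 530 nt. In USP33, a run at chr1:77697492-77697983 on the minus strand had sites at 0 and 8 nt and at 38 nt, then single sites at 205 and 272 nt, and a pair at 453 and 487 nt. USP34 had a run of 12 sites over 683 nt at chr2:61235753-61236440, 235 kb from the annotated start. In USP14, 12 sites lay within 454 nt at chr18:209920-210378. Exons and introns were not distinguished, because no annotation of them was used here.

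Neither the list nor the tables used here hold the genome sequence at the sites. The sequence table covered 300 nt around annotated gene starts, 250 nt before and 50 nt after, and 0 of the 52 such windows inside the members with a site contained a site of theirs. No sequence is therefore shown.

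Sites on the other strand were rare and lay in other genes. The span of USP50 had 17 sites on the opposite strand, and all 17 lay in the overlapping gene USP8, which runs the other way. The span of USP35 had 6 such sites, all inside GAB2 on the minus strand. The span of USP54 had 1, inside the antisense RNA gene PPP3CB-AS1. The other 47 members had none. All 885 sites counted for the members lay in no other protein-coding gene of the same strand.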

How the data were processed

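The deposited file is a merged list of SF3B1 binding sites of 5 nt, reproducible by all replicates of either condition per the file headers. Its score, as deposited by the authors, was 0 in every row, so sites were not ranked; a running region number was used only in an alternative. The submitters' processing notes name FastQC 0.11.8, STAR 2.7.3a and 2.6.1b, UMI-tools 1.0.0, bedtools 2.27.1 and builds GRCh38.p10 and GRCh38.p12 without roles. The site caller is not given in the sources used here.

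Positions were made 1-based and assigned by their centre to RefSeq gene spans of GRCh38.p14. Gene strand came from the RefSeq promoter table for 38 members and from the majority of sites for 6; for the other 6 it was unknown, and these had no sites. In all genes, the table gave the strand of 15843 and the sites that of 1223.

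Members and lists were chosen with earlier results of these data known. Genes named are the 10 members with the most sites, the 5 densest with at least 5 sites, the member with the largest cluster, members with 1 or 0 sites, members of the role and paralogue groups, and members with sites on the opposite strand; USP45 and USP40 and the genes of the other lists were named after their values were seen. USP41 is listed as a pseudogene and was not counted. The design foresaw counts against exons if an annotation was given; none was used. Counting was tested on simulated data. Analyses ran in Python 3.11.15 with pandas 2.3.3, NumPy 2.4.6 and SciPy 1.17.1; figures were drawn with Matplotlib 3.10.9.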

Additional observations from a re-analysis of the deposited data

How the results depend on the processing

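Of 62 recalculations of 17 results (59 of them planned), all 62 stayed within 1.5 times the reported value or, for the shares of pairs and of outer sites, within its 95% Wilson interval. Some could not show a change. All 885 sites already lay in no other protein-coding gene of the same strand, so that restriction removed none. Taking the 5′ base as the position moved it only within a site of 5 nt. The total of 885 sites ranged from 748 (sites at most 5 nt apart merged) to 909 (both strands), and the median over the 50 members, 9, ranged from 7.5 to 11.5. The 38 members with a site became 36 with a minimum of 2 sites, 29 with a minimum of 5, and 39 when the strand was taken from the majority of sites, an alternative chosen after seeing the data. The member gained in the last case was USP50, through the 17 sites that lie in USP8. The share of pairs in the span of 25 to 45 nt lay between 80.9% and 84.6%. Counts against exons and 3′ splice sites were not run, because no exons were used. Leaving out each replicate was impossible in a merged list. No paired analysis was possible because replicates share 1 merged column. Without read counts, a member with 0 sites cannot be told from one whose RNA was too rare to give a site.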
